A study of Mus musculus with 161 samples.

Results

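Contacts between loci that lie more than 1 Mb apart with at least 2 boundaries of topologically associating domains (TADs) between them were followed in mouse embryonic stem cells by 5C, a chromosome-conformation-capture assay that reads ligation products through designed primers, in 91 libraries. Members were taken as pairs of 1 forward and 1 reverse primer whose fragment midpoints are over 1 Mb apart (mm9) and hold at least 2 of 6 boundary positions on chromosome X between them. Of 244944 designed primer pairs, 108713 met this rule, and 94545 of the 212485 pairs measured after correction did (44.5%). The measured members were a median of 2.38 Mb apart, and the longest spanned 4.58 Mb. Between their fragments lay 2 boundaries in 21023 pairs, 3 in 34469, 4 in 19919, 5 in 17125 and all 6 in 2009.

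The libraries came from E14Tg2a cells, which are XY and hold a single X chromosome, and fell into 29 combinations of line and treatment. In the transgene lines, endogenous CTCF carries an auxin-inducible degron (AID) and eGFP, the F-box protein Tir1 is randomly integrated, and a CTCF cDNA under a TetO promoter with rtTA3G sits at the Tigre locus. These cells received 500 µM auxin and 1 µg/ml doxycycline (dox) for 4 days, which targets endogenous CTCF for degradation in every transgene line, the full-length control included. The control, Full-length, is 1 clone with 14 libraries, and the same clone was also treated with auxin alone (2 libraries, Full-length without dox). Full-length_low_expression is a second clone of the same cDNA with 2 libraries. The N-terminal mutants are Del_1-265 (clones 1 and 2), Del_1-31 (clones 1 and 2), Del_13-33 (clones 1 and 2), Del_1-88, 89-178, 179-265, 264-288, Y226A-F228A and del_13-33-Y226A-F228A. The others are the zinc-finger mutant H288R, the C-terminal Del_576-614, Del_577-736 and Del_615-736, N/C-term-swap, Mut_Parylation, and Sumoylation_deficient_1 and Sumoylation_deficient_2, whose labels name K74R with a C-terminal deletion. Untreated cells were WT parental, the degron parent CTCF-AID, Tir1, and 2 clones of each with residues 13 to 33 deleted from endogenous CTCF. Each line is a clone or a pair of clones, and transgene expression differs between clones, so a mutation and its clone cannot be told apart in lines with 1 clone.

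CTCF is a zinc-finger protein that binds an asymmetric DNA motif and sits at many TAD boundaries. Cohesin is thought to extrude chromatin loops until it meets CTCF in a given orientation, which gives boundaries their polarity and lowers contacts between neighbouring TADs. Contacts that span several boundaries are far apart in the sequence and rare in any 5C matrix. The region studied lies around Tsix, an antisense regulator of X inactivation, and the 6 positions divide it into 7 segments numbered in chromosome order.

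The first boundary position lies in an intron of Nhsl2, the second between Gm14859 and Cited1, and the third in an intron of 4930519F16Rik. The fourth lies between Tsix and Gm14861, the fifth between 2 small RNA genes (U6 and SNORA17), and the sixth between Cox7b and Atp7a, which encodes a copper transporter. Segments 1 to 6 measure 330, 260, 1040, 220, 540 and 2000 kb. Segment 2 holds Rgag4, Pin4, Ercc6l and Rps4x, segment 4 holds Cdx4, Chic1 and Tsx, and segment 6 holds 12 protein-coding genes, among them the chromatin remodeller Atrx. Peaks of FLAG-tagged full-length CTCF were mapped by the authors in the Full-length clone after 2 days of auxin and dox. Contacts in the transgene lines were read after 4 days of treatment. Within 10 kb of the positions lie 11 of these peaks, 8 of which hold CCANNAGNNGGC, the core of the CTCF motif. The fifth position has no peak that close, with the nearest 33.9 kb away. In all, 39.7% of the 78 peaks in the region and 43.3% of the 1128 peaks on chromosome X hold this motif on either strand. To give the sequence that member contacts span, the nearest peak with a match is shown for positions 1, 2, 3 and 6, while the 2 such peaks at the fourth are not shown. Capitals mark the match, which is on the plus strand in each of the 4:
Boundary 1, chrX:99170321-99170520, plus strand, Nhsl2 intron: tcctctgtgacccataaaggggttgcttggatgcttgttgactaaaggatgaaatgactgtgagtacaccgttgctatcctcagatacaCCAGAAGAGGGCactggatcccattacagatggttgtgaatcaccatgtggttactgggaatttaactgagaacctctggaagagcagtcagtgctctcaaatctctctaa
Boundary 2, chrX:99415083-99415282, plus strand, between Gm14859 and Cited1: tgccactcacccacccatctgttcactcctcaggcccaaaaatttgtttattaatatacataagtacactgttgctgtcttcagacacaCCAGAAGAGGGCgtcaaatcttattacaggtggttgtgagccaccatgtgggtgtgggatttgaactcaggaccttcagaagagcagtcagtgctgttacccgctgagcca
Boundary 3, chrX:100455304-100455503, plus strand, 4930519F16Rik intron: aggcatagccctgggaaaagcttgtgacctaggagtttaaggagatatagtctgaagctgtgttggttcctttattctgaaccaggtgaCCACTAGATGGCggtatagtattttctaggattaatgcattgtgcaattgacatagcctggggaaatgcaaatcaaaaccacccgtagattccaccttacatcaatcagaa
Boundary 6, chrX:103221845-103222044, plus strand, between Cox7b and Atp7a: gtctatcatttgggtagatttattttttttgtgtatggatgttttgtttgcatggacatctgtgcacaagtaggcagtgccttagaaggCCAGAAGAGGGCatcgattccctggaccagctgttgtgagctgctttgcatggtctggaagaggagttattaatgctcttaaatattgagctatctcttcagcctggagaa

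Count totals ranged from 3631870 to 23419010 ligation products over the 82 libraries whose count matrix was complete, of which 157965 to 1296730 fell on members. Between 32.9% and 87.0% of measured members had no signal in a given library, so single members are sparse and were summed or averaged. Library numbers form 6 runs of nearly consecutive numbers, named here run 1 to run 6 in numerical order, and the median member share of a run lay between 4.63% (run 6) and 5.89% (run 1). The labels do not say what a run shares. Values within runs are therefore given beside the pooled ones for the members' share, and for other measures where stated. The labels name replicates without saying whether they are separate cultures, so p-values measure the spread between these libraries, which may be technical.

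Members carried little signal each. In Full-length, the mean signal of a member pair was 0.539 ppm (parts per 1000000 of a library's 5C signal), with a median over pairs of 0.297 and a 90th percentile of 0.998. All other measured pairs averaged 8.07 ppm. Of the members, 3.98% had no signal in any of the 14 Full-length libraries. Members within 10 kb above the limit of 1 Mb averaged 1.02 ppm (178 pairs), and pairs within 10 kb below it with at least 2 boundaries between averaged 0.985 (174 pairs).

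The signal was concentrated in few pairs: the highest 1% of members held 21.8% of it, and the 5 highest held 4.35%. The highest joined an intron of 4930519F16Rik (chrX:100444332-100444652) to a fragment between Zdhhc15 and Gm14822 (chrX:101895424-101895911). Over the Full-length libraries it measured 426 at the lowest, 608 at the median and 1094 at the highest, while its neighbouring primer pairs averaged 1.24. The second joined a fragment between Cdx4 and Gm9516 to an intron of Atp7a, with 414, 534 and 945 ppm. The third joined an intron of Hdac8, which encodes a cohesin deacetylase, to a fragment between Atrx and Magt1, with 264, 349 and 758. The fourth joined a fragment between Pin4 and Gm16471 to one between Gm9164 and Gm9166 (209, 280 and 661 ppm). The fifth joined an intron of Ercc6l to an intron of Atp7a (129, 179 and 649 ppm). Each of these 5 pairs was among the 10 highest members in all 91 libraries, each stood alone among neighbours averaging 0.310 to 1.24, and no FLAG–CTCF peak lay in any of the 10 fragments.

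Whether crossing boundaries goes with less contact beyond distance was asked by comparing members with pairs over 1 Mb apart that have 0 or 1 position between them, in 100-kb bins of distance. The answer depended on the distance. In Full-length, the log2 ratio of mean member signal to that of the other pairs was -0.85 ± 0.07 (SD, n = 14) at 1.0 to 1.1 Mb and -0.36 ± 0.07 at 1.1 to 1.2 Mb. At 1.2 to 1.3, 1.3 to 1.4 and 1.4 to 1.5 Mb members were higher, with 0.21 ± 0.08, 0.24 ± 0.04 and 0.38 ± 0.10. High single values were kept as they are in these means. The highest member pair, 1.45 Mb apart with a mean of 649 ppm in Full-length, falls in the bin at 1.4 to 1.5 Mb. Its part in the 0.38 was not tested. Further out the ratio ran between -1.04 (1.9 to 2.0 Mb) and 0.09 (1.6 to 1.7 Mb) up to 2.4 Mb. At 2.4 to 2.5 Mb it was -3.00 ± 0.46, where few other pairs were measured and their mean rose to 3.66 ppm from 0.447 in the bin before. Very high single pairs held most of the comparison signal in this bin and set its ratio. Averaged over all 15 bins, the ratio was -0.35 ± 0.04 in Full-length and ran from -0.47 to -0.19 over the 91 libraries. Without the last bin it was -0.17 ± 0.04 in Full-length and ran from -0.28 to 0.01. Neither sign held across distances. By the segment lengths, comparison pairs over 1.3 Mb apart all have an end in the 2000-kb segment 6. Members and comparison pairs therefore also differ in where they lie, and the part of this in the ratio was not tested. The ratios below by number of boundaries, by segment pair and by line use the same comparison pairs.

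**Figure D1:**
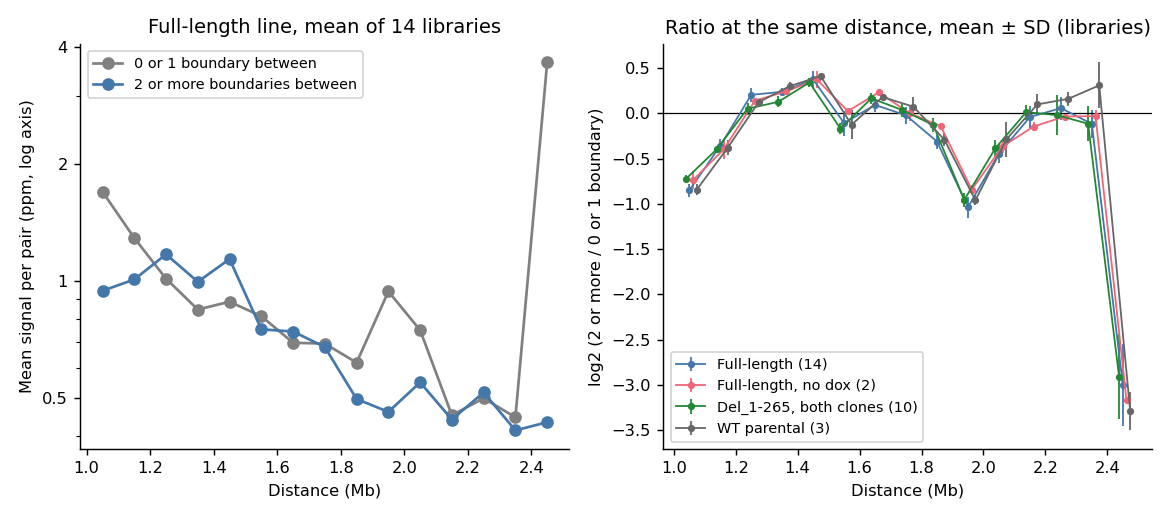
Left, mean signal per pair (ppm, log axis) against distance (Mb) in the Full-length line, for pairs with 2 or more boundaries between them (blue) and with 0 or 1 (grey). Right, log2 of their ratio in 4 lines (points, mean over libraries; bars, SD), which in Full-length runs from -0.85 at 1.0 to 1.1 Mb to 0.38 at 1.4 to 1.5 Mb and falls to -3.00 in the last bin. High single values are included. The highest member pair falls in the bin at 1.4 to 1.5 Mb, and few comparison pairs hold most of the comparison signal in the last bin.

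By number of boundaries crossed, signal per member fell from 0.799 ± 0.100 ppm with 2 between to 0.622 ± 0.097 with 3, 0.370 ± 0.071 with 4, 0.291 ± 0.071 with 5 and 0.219 ± 0.057 with 6 (SD, n = 14). Pairs that cross more boundaries are also further apart, with median distances of 1.52, 2.16, 2.73, 3.24 and 4.31 Mb. Against pairs at the same distance up to 2.4 Mb, with the highest 0.1% of values in each library capped, the log2 ratio was -0.24 ± 0.03 with 2 between, -0.16 ± 0.06 with 3, -0.32 ± 0.06 with 4 and -0.55 ± 0.10 with 5. Each number of boundaries was matched over its own distance bins, so these ratios are not over the same distances. By their median distances, most members with 4 or 5 between lie beyond 2.4 Mb and were left out. Taken so, the ratios did not step down with each further boundary, and no pair with 6 between could be matched for distance.

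Levels also varied between pairs of segments. Members between segments 2 and 4, which lie on either side of the 1040-kb segment 3, measured 1.27, 1.68 and 2.24 ppm in the lowest, median and highest Full-length library. That was above other pairs at the same distance in the mean (log2 ratio 0.73 ± 0.11, SD, n = 14). Members between segments 3 and 5 were also above (0.33 ± 0.09). Segments 4 and 6, which flank segment 5, gave -0.61 ± 0.07, segments 1 and 6 gave -0.55 ± 0.10, and segments 2 and 6 gave -0.50 ± 0.08. Over the 11 segment pairs that could be matched for distance, the ratio was above 0 for 3 (2 and 4, 3 and 5, and 1 and 4 at 0.02 ± 0.12). Each segment pair was matched over its own distance bins, so these ratios are not over the same distances. The lowest level without regard to distance was that of segments 1 and 7, at the ends of the region, with 0.219 ± 0.057 ppm.

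**Figure D2:**
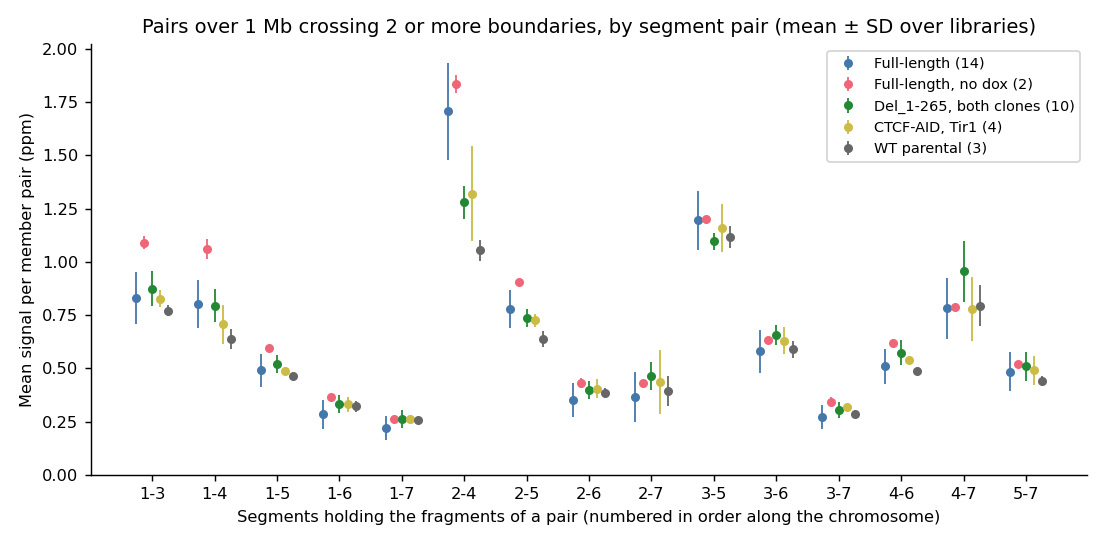
Mean signal per member pair (ppm) for the 15 pairs of segments that hold members, in 5 lines (points, mean over libraries; bars, SD). Segments 2 and 4 stand highest in each line except WT parental, where segments 3 and 5 do, with 1.71 in Full-length, 1.28 in Del_1-265 and 1.05 in WT parental between segments 2 and 4.

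Members with a FLAG–CTCF peak in 1 fragment were compared with members without peaks. The peaks of the Full-length clone were used for every line, untreated cells included. Whether the other lines hold the same peaks was not tested here. Of the members, 325 had a peak in both fragments (0.344%), 11327 had one in 1 fragment (11.98%) and 82893 had none. With a peak in 1 fragment, the log2 ratio to members without peaks at the same distance was 0.00 ± 0.04 in Full-length (SD, n = 14), 0.01 ± 0.02 in Full-length without dox (n = 2) and 0.00 ± 0.03 in Del_1-265 (n = 10). In WT parental it was -0.05 ± 0.02, with all 3 libraries below 0. Members with a peak in both fragments filled only 1 distance bin, where the ratio was -0.16 ± 0.25 in Full-length, -0.45 ± 0.44 in Del_1-265 (n = 10), -0.55 ± 0.26 in Del_13-33 (n = 10), -0.60 ± 0.54 in CTCF-AID, Tir1 (n = 4) and -0.89 ± 0.53 in WT parental (n = 3). These differences between lines were not tested.

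The members' share of each library's 5C signal was the measure compared across lines. It was 5.27% on average over the 91 libraries, and ran from 3.87% to 8.15%. In Full-length the lowest library had 3.93%, the median was 5.01% and the highest had 6.84% (mean 5.08% ± 0.79, SD, n = 14). Full-length without dox had 5.73% and 5.82%, and Full-length_low_expression had 4.69% and 4.71%. All 4 of these values lie within the range of Full-length, as do the means of the 20 transgene lines and treatments with at least 2 libraries, which ran from 4.34% (del_13-33-Y226A-F228A, n = 2) to 5.97% (Del_1-31 clone 1, n = 2).

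With all libraries pooled, the share was called different from Full-length in 0 of 20 comparisons (two-sided exact permutation tests, lowest adjusted p = 0.778 and lowest unadjusted p = 0.15, so 0 had p under 0.05). Del_1-265 clone 1 ran from 4.74% to 5.73% with a median of 5.30% (n = 6), and clone 2 from 5.30% to 6.25% with a median of 5.55% (n = 4). Del_13-33 clone 1 ran from 3.87% to 6.41% (n = 6) and clone 2 from 5.19% to 5.78% (n = 4). The groups overlapped in each of these comparisons. Del_576-614 ran from 3.92% to 5.79% (n = 3), and its highest library is titled as Del_615-736 and was placed by its cell line. The labels of that cell line conflict. Its ChIP-seq libraries are titled Del_615-736 and its other 5C libraries Del_576-614, so the construct of the highest library is uncertain. Without that library the mean was 1.09 percentage points below Full-length (exact permutation p = 0.0333, adjusted p = 0.667). Both remaining libraries are of run 3, where they averaged 3.98% and the 5 Full-length libraries 4.56%.

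**Figure D3:**
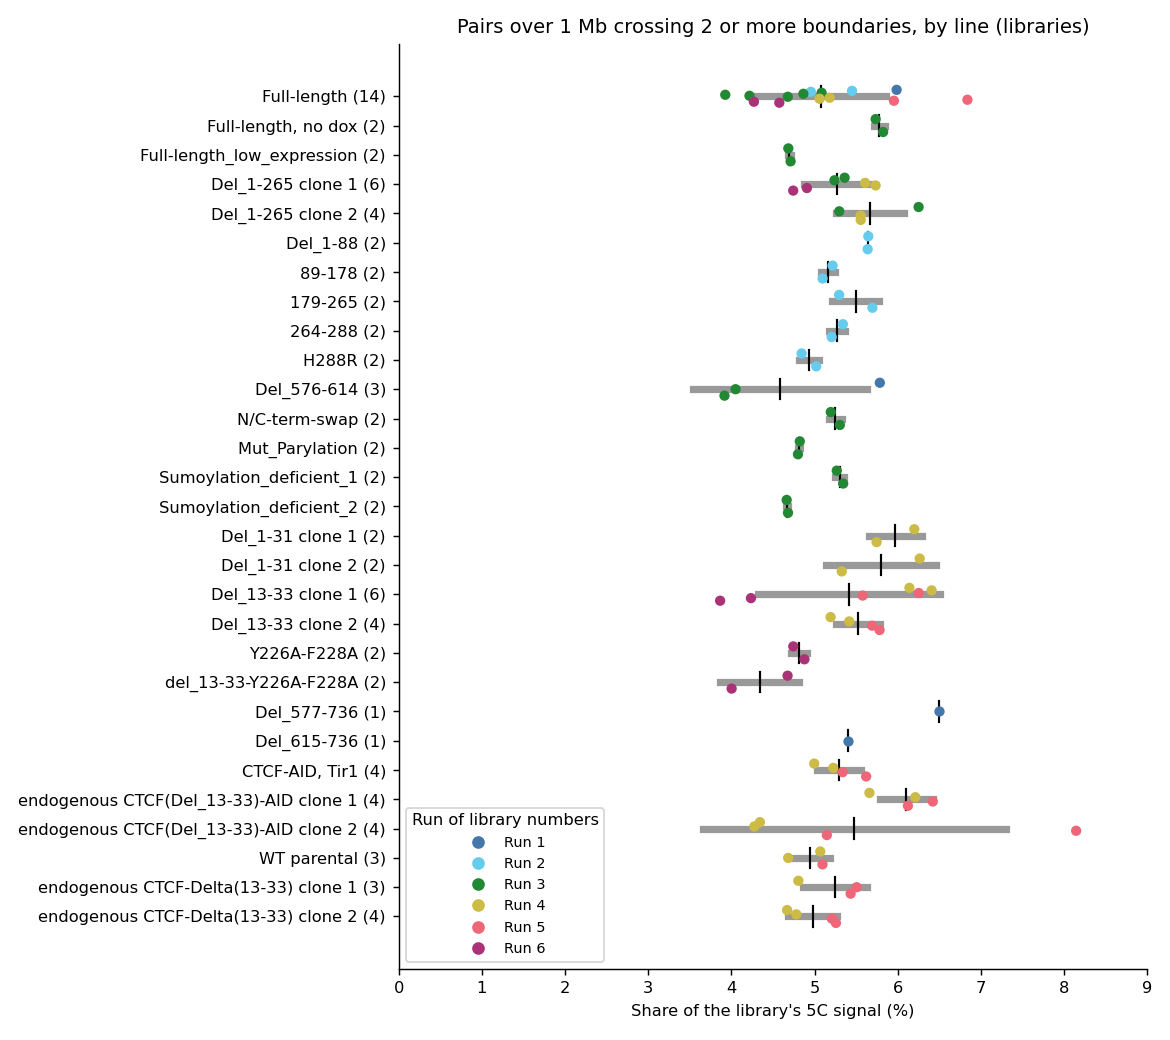
Share of each library's 5C signal (%) in pairs over 1 Mb apart with 2 or more boundaries between them, for 29 lines and treatments (points, libraries coloured by run of library numbers; black ticks, means; grey bars, SD; number of libraries in brackets). The Full-length libraries spread from 3.93% to 6.84%, with run 5 at the upper end.

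The spread of Full-length moved with the runs of library numbers. Its 2 libraries of run 5 had 5.95% and 6.84%, while the 2 of run 6 had 4.27% and 4.58%. Within runs, Del_1-265 lay above Full-length. In run 3, clone 1 had 5.24% and 5.36% and clone 2 had 5.30% and 6.25%, while the 5 Full-length libraries ran from 3.93% to 5.09%. In run 4, the 4 Del_1-265 libraries had 5.55% to 5.73% and the 2 Full-length libraries 5.06% and 5.18%. In run 6, clone 1 had 4.74% and 4.91% and Full-length 4.27% and 4.58%. Each Del_1-265 library therefore exceeded every Full-length library of its run. With runs as a block, the share was 0.588 percentage points higher in clone 1 (exact permutation within runs, adjusted p = 0.0106, 6 against 9 libraries) and 0.896 points higher in clone 2 (adjusted p = 0.0317, 4 against 7 libraries). These are the 2 calls among the 4 comparisons that such a test could decide. The share of members without signal also ranged higher in Del_1-265 in 2 of the 3 runs, with overlap in run 3. It was 59.1% to 75.95% in the 4 Del_1-265 libraries of run 3 against 52.5% to 64.7% in Full-length, and 76.2% and 82.0% against 57.9% and 70.8% in run 6. In run 4 it was 47.7% to 54.9% against 48.2% and 53.3%. The part of this in the difference was not tested. Differences within runs of the other transgene lines, Full-length without dox aside, ran from -0.475 points (Del_576-614, exact permutation adjusted p = 0.127) to 0.851 points (Del_1-31 clone 1, without a test). Lying above every Full-length library of the run was not particular to Del_1-265. In run 3 it also held for N/C-term-swap (5.20% and 5.30%) and Sumoylation_deficient_1 (5.27% and 5.34%). These were 0.695 and 0.751 points above Full-length, without a test. In run 4 it held for lines including Del_1-31 clone 1 (5.75% and 6.20%) and clone 2 (5.33% and 6.26%). In run 6 it held for Y226A-F228A (4.74% and 4.88%), 0.388 points above Full-length, also without a test.

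Full-length without dox was 1.22 points above the 5 Full-length libraries of its run, and its 2 libraries were both above all 5 of them, but a block test of 2 against 5 was not made and this is given as a value. Full-length_low_expression, from the same run, was 0.144 points above Full-length and lay within its range. Del_13-33 clone 1 differed by 0.0996 points within runs (exact permutation adjusted p = 0.778), and clone 2 was 0.238 points lower, without a test. Between mutants, Del_1-265 was 0.726 points above Full-length_low_expression, with 10 of 10 libraries above both (exact permutation p = 0.0303, the smallest this design allows, adjusted p = 0.0909), and 0.839 points above it within their shared run, without a test. Against Full-length without dox it was 0.354 points lower (exact permutation adjusted p = 0.364), and against Del_13-33 the difference was within the spread (0.0312 points, permutation test adjusted p = 0.918).

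**Figure D4:**
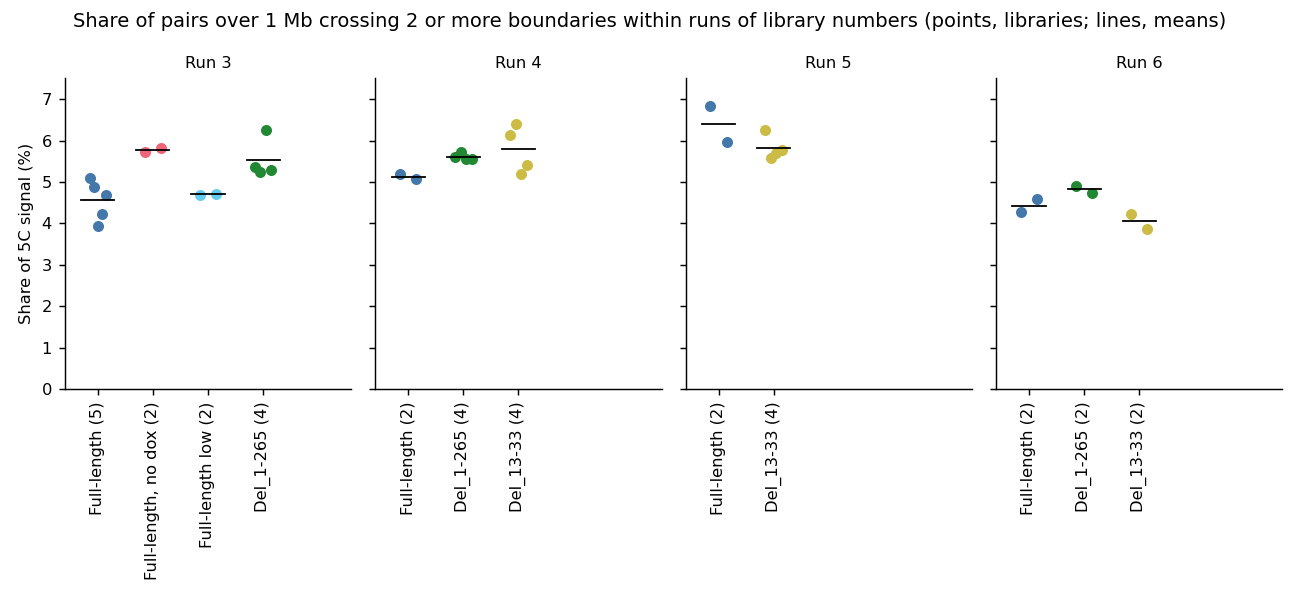
The same share (%) within 4 runs of library numbers for 5 lines and treatments (points, libraries; lines, means; number of libraries in brackets). In the 3 runs that hold both, each Del_1-265 library lies above each Full-length library, while Del_13-33 lies above, below or among them.

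Another 4 comparisons involve untreated cells, 3 among them and 1 of Full-length with its untreated degron parent, and the share was called different in 0 of the 4 (exact permutation tests, lowest adjusted p = 0.577, and 0 with p under 0.05). WT parental had 4.68%, 5.07% and 5.10%, and the 2 endogenous CTCF-Delta(13-33) clones ran from 4.67% to 5.51% with a median of 5.21% (n = 7). CTCF-AID, Tir1 ran from 5.00% to 5.62% (n = 4), and the clones with the deletion in degron-tagged CTCF ran from 4.28% to 8.15% with a median of 5.89% (n = 8). The value of 8.15%, the highest of all libraries, came from clone 2, in a library with 87.0% of members at no signal, and without it the difference from CTCF-AID, Tir1 fell from 0.496 to 0.160 points. The effect of the deletion was 0.145 points in untagged cells, and the 2 effects differed by -0.351 points (exact permutation of genotype within each background, p = 0.662). With runs as a block, the deletion effect was 0.0279 points in untagged cells and 0.496 in degron-tagged cells (exact permutation within runs, adjusted p = 0.84 for both). The difference of Full-length from CTCF-AID, Tir1 was -0.2199 points with all libraries pooled, but 0.464 points within the runs that hold both (a value with no test, 4 against 4 libraries). The 2 lines with 1 library had 6.49% (Del_577-736) and 5.40% (Del_615-736). In counts, these were 6.08% (95% Wilson interval 6.07 to 6.10%, counting error only) and 5.17% (5.16 to 5.18%).

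The mean ratio to pairs at the same distance was called lower than in Full-length in 1 of 20 transgene comparisons, Del_13-33 clone 1, by -0.06 on the log2 scale (exact permutation p = 0.00217, adjusted p = 0.0433, n = 6). The call was lost with values capped as above (adjusted p = 0.0949) and without the bin at 2.4 to 2.5 Mb (adjusted p = 0.0833, exact permutation tests), and when any of 15 of its 20 libraries, Full-length included, was left out. It was lost too with runs as a block (-0.03, exact permutation adjusted p = 0.122) and in counts (adjusted p = 0.669, exact permutation). Another 3 lines, not called, had p under 0.05, the smallest p that 2 libraries allow (exact permutation p = 0.0167, adjusted p = 0.0833 for each). Del_1-88 (-0.46 and -0.46) and 264-288 (-0.47 and -0.44) lay below all 14 Full-length libraries, which ran from -0.42 to -0.30, and below the mean of -0.35 in the 2 Full-length libraries of their run. Mut_Parylation (-0.28 and -0.28) lay above all 14, with a mean of -0.34 in the 5 Full-length libraries of its run. Del_1-265, whose share was called higher with runs as a block, was not called for this ratio. Its difference from Full-length was 0.024 in clone 1 and 0.0055 in clone 2 (exact permutation adjusted p = 0.340 and 0.924). Of the 4 comparisons that involve untreated cells 0 were called (exact permutation, lowest adjusted p = 0.319, for Full-length against CTCF-AID, Tir1, and 0 with p under 0.05).

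Split by segments, Del_1-265 differed from Full-length in both directions. Over all 28 segment pairs, 14.3% were called higher and 14.3% lower (permutation tests with 100000 resamples, adjusted p under 0.05), and of the 15 that hold members 2 were higher and 1 lower. Members between segments 2 and 4 held 0.177%, 0.195% and 0.207% of signal in the lowest, median and highest Del_1-265 library, against 0.192%, 0.254% and 0.339% in Full-length. The groups overlapped slightly, and the mean fell by 0.0647 points, from 0.258% to 0.194% (permutation adjusted p = 0.00028, from the smallest p that the resamples can give). Segments 4 and 7 rose from 0.117% to 0.145% (permutation adjusted p = 0.0334). Segments 1 and 3 rose from 0.862% to 0.947% (permutation adjusted p = 0.0334), although only 1154 of their 4821 pairs are members. The 2 higher calls were lost without replicate 2 of clone 1 or replicate 1 of clone 2, both of run 3, and became 8 without Full-length replicate 3 of run 5.

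With runs as a block, 46.4% of the 28 segment pairs were higher and 28.6% lower in Del_1-265 (exact permutation within runs, 10 against 9 libraries). Among the 15 with members, 11 were higher and only that of segments 2 and 4 was lower, by -0.0531 points (exact permutation adjusted p = 0.00141). The largest rise in points was between segments 3 and 6, which hold the most members (27537), with 0.335 points (exact permutation adjusted p = 0.000449). Those not called either way were segments 1 and 4, 2 and 5, and 3 and 5.

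The level between segments 2 and 4 varied across lines over a wider range than the total share. Full-length without dox had 0.273% and 0.283%, and Full-length_low_expression had 0.259% and 0.268%, both within the Full-length range. Del_13-33 ran from 0.214% to 0.302% (median 0.237%, n = 10), also within it. H288R had 0.185% and 0.186%, CTCF-AID, Tir1 ran from 0.168% to 0.230% (n = 4) and WT parental from 0.151% to 0.167% (n = 3). All WT parental and H288R libraries lay below each Full-length library. At the other end were Del_1-88 (0.294% and 0.310%), 89-178 (0.301% and 0.307%) and the single library of Del_577-736 (0.355%). These lines were not tested for this segment pair. The Full-length range is over all its runs, whereas H288R, Del_1-88 and 89-178 are of run 2 only and Del_577-736 of run 1 only. Line and run therefore cannot be told apart in this order.

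Bins of 100 kb were used to place the differences. Of 942 bin pairs tested with limma on log2(mean signal per primer pair + 0.1), 41.8% consisted of members only. In Del_1-265 against Full-length, 17.5% of all bin pairs were called higher and 14.4% lower, and of the member bin pairs 60 were higher (15.2%) and 11 lower (2.79%). The median log2 difference was 0.14 over members and 0.07 over all bin pairs. The 11 that fell lay between segments 2 and 4 (4), 3 and 5 (6) and 2 and 5 (1), and 10 of them were 1 to 1.5 Mb apart. The 60 that rose lay at all distances, with 7.69% of member bin pairs at up to 1.5 Mb, 20% at over 1.5 to 2 Mb, 12.6% at over 2 to 3 Mb and 19.0% at over 3 Mb. Without replicate 1 of clone 2 (run 3) the share of member bin pairs that rose fell to 6.35%, and without Full-length replicate 3 of run 5 it was 22.8%. Between segments 3 and 6, 25 of 135 rose, and between segments 1 and 6, 17 of 80.

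The 3 largest falls joined the part of segment 2 around Pin4 and Ercc6l to segment 4 and its far end. Between chrX:99300001-99400000 and chrX:100500001-100600000, Del_1-265 measured 1.17, 1.25 and 1.53 ppm (lowest, median, highest of 10) and Full-length 1.35, 1.72 and 2.62 (of 14). The groups overlapped, and the log2 difference was -0.43 ± 0.07 (SE, limma adjusted p = 4.16e-07). Between the same bin and chrX:100600001-100700000 the values were 1.22, 1.35 and 1.62 against 1.31, 1.82 and 2.19 (log2 difference -0.40 ± 0.06, limma adjusted p = 3.71e-07). Between chrX:99200001-99300000 and chrX:100600001-100700000 the log2 difference was -0.34 ± 0.08 (limma adjusted p = 0.000277). These 3 bin pairs were also called in Full-length against CTCF-AID, Tir1, where Full-length was higher by 0.35 ± 0.09, 0.36 ± 0.08 and 0.34 ± 0.10 (limma adjusted p = 0.00634, 0.00227 and 0.0268). Both comparisons use the same Full-length libraries.

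The largest rise in Del_1-265 was between chrX:99400001-99500000 and chrX:102700001-102800000, 3.3 Mb apart, with 0.417, 0.682 and 0.841 ppm against 0.190, 0.316 and 1.24 in Full-length. The groups overlapped because of high Full-length libraries, and the log2 difference was 0.63 ± 0.25 (limma adjusted p = 0.0462). The next were between chrX:99600001-99700000 and chrX:102600001-102700000 (0.55 ± 0.20, limma adjusted p = 0.0321) and between chrX:99300001-99400000 and chrX:103200001-103300000, which holds the sixth boundary (0.53 ± 0.19, limma adjusted p = 0.0268). With runs as a term in the fit, 34.3% of all bin pairs were higher and 18.3% lower, and of the member bin pairs 149 were higher (37.8%) and 12 lower (3.05%). The 4 bin pairs between segments 2 and 4 were lower in that fit too, and at over 2 Mb no member bin pair was lower.

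**Figure D5:**
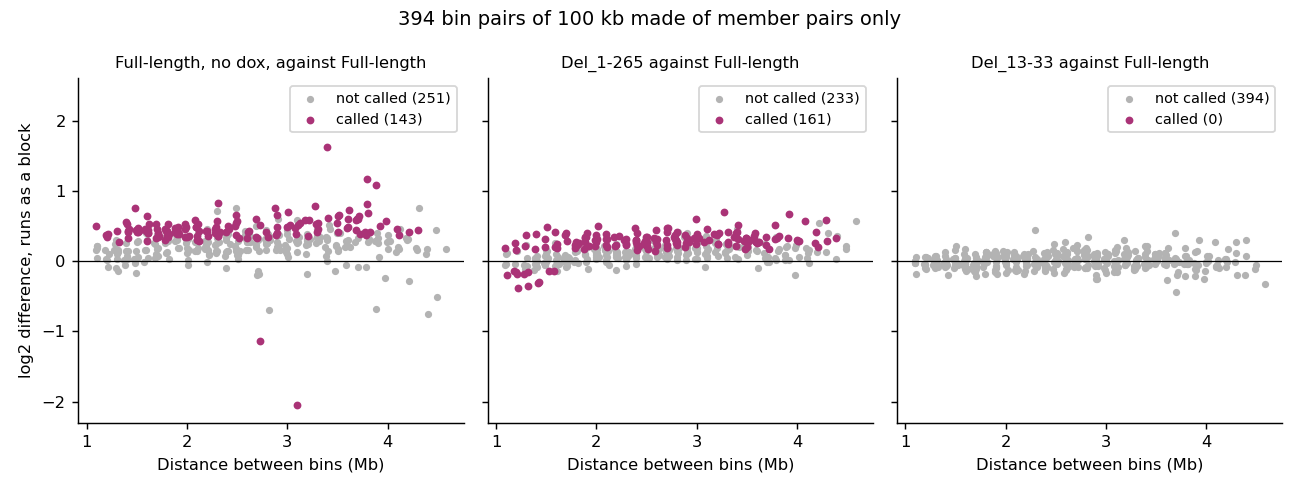
Log2 difference in mean signal per primer pair from Full-length, with runs of library numbers as a block, against distance (Mb) for the member bin pairs of 100 kb in Full-length without dox, Del_1-265 and Del_13-33 (purple, adjusted p under 0.05; grey, not called; points spread slightly sideways). Falls in Del_1-265 lie near 1 to 1.5 Mb and rises extend to the longest distances, while none is called in Del_13-33.

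Full-length without dox was called higher in 10 member bin pairs (2.54%) and lower in 2 (0.508%), against 8.49% higher and 2.55% lower over all bin pairs (limma). With runs in the fit, 35.8% of member bin pairs were higher and 2 (0.508%) were lower, against 37.0% and 8.28% over all. Without either of its 2 libraries 0 were called higher by limma. Its largest rise was between chrX:99000001-99100000 and chrX:102400001-102500000, with 1.56 and 1.60 ppm against 0.236, 0.473 and 2.09 in Full-length (log2 difference 1.37 ± 0.46, limma adjusted p = 0.041), and the groups overlapped. Del_13-33 was called higher in 3 member bin pairs (0.761%) and lower in 0, against 0.318% and 2.97% over all bin pairs (limma). With runs in the fit it was called in 0 and 0 (13 at p under 0.05, and 0 by edgeR on counts), against 0% and 0.106%. The 3 include the bin pair of segment 2 and the sixth boundary that also rose in Del_1-265, with 0.740, 1.50 and 2.20 ppm against 0.524, 0.759 and 2.09 in Full-length. Full-length_low_expression was called in 0 member bin pairs and 0% of all in either direction by limma, with 6 member bin pairs at p under 0.05 and 0 called by edgeR on counts. With runs, 0.849% of all bin pairs were higher and 1.06% lower, and 0 members were called. Full-length was called higher than CTCF-AID, Tir1 in 4 member bin pairs (1.02%) and lower in 4 (1.02%), against 5.1% and 2.65% over all (limma). With runs it was higher in 12 (3.05%) and lower in 2 (0.508%), against 10.6% and 9.13%. The 4 higher lay at up to 1.5 Mb, 3 of them between segments 2 and 4, and the 4 lower at over 2 Mb.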

How the data were processed

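5C reads were mapped by the authors to primer pairs in mm9 coordinates (486 forward and 504 reverse primers), and the deposited counts are raw ligation products per pair. The authors also deposited the signal after iterative correction at the fragment level, in 78 libraries as symmetric matrices that sum to 1000000 and in 13 as forward by reverse matrices. The FLAG–CTCF peak list deposited in mm9 gives coordinates only. Bowtie2 and SAMtools are named in the submitters' processing notes, without versions.

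Here, forward by reverse signal was set to a total of 1000000 per library, and the share of members was computed from it. Corrected matrices hold 454 or 455 forward and 466 or 467 reverse primers. Distances are between fragment midpoints. The same-distance ratio is the mean log2 ratio over 100-kb bins with at least 50 pairs of each kind. Lines were compared by two-sided exact permutation tests, or 100000 resamples where both groups hold at least 10 libraries, with Benjamini-Hochberg adjustment over 20, 4 or 3 comparisons. Bin pairs of 100 kb with at least 20 primer pairs and a mean of at least 0.1 were fitted over all 91 libraries with limma (3.58.1), with a pseudocount of 0.1, so a log2 difference understates changes of low pairs. Calls are at adjusted p under 0.05. Analyses used Python 3.11.15, scipy 1.17.1, R 4.3.3 and, on counts as an alternative, edgeR 4.0.16. Procedures were tested on simulated data.

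A run is a stretch of library numbers without a gap over 4, and 394 bin pairs held members only. Count matrices of 9 libraries are incomplete, so their counts were not used. Replicate numbers were not treated as pairs. Over all runs together, deviations of libraries with equal numbers correlated at a median r of 0.01. The r was over 0.1 in 199 of 812 such pairs, against 661 of 2923 pairs with different numbers. Pairing within a run was not tested, and 2 numbers are each borne by 2 Full-length libraries. Within groups, libraries correlated over members at r of 0.784 to 0.977 and none were duplicates. Described items were every segment pair with members, the 5 highest members in Full-length, and the 3 largest changes in each direction per contrast. Members, lists and tests were chosen with earlier results of these data known.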

Additional observations from a re-analysis of the deposited data

How the results depend on the processing

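Of the values of the members' share under another setting, leaving out single libraries aside, 245 were counted as unchanged, 12 turned, 8 without a test moved (2 of them changed sign) and 2 became called. Unchanged differences with a test kept their direction and side of the threshold. Those without a test were counted as unchanged if they shifted by less than the reference SD, even where the sign changed. Counting depth bears on single members, most of which have no signal in a given library. Counts were used for the 82 complete libraries only. The distance bin at 2.4 to 2.5 Mb, high single pairs, the runs and single libraries move the other results. Alternatives with runs as a block in the same-distance ratio, in segment pairs and in bin pairs, the block of replicate numbers and the capped values for that ratio, and leaving out that bin were chosen after seeing the data. The cause of the changes below was not tested.

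Share differences are in percentage points. From raw counts, N/C-term-swap turned to -0.0271, and Del_1-265 against Full-length without dox, left with 1 library, was -0.169. With only pairs over 100 kb in the denominator, 89-178 (-0.127), 264-288 (-0.0310), Mut_Parylation (0.164) and Del_1-265 against Full-length without dox (0.383) turned. Over 1.5 Mb, 89-178 (-0.0252) and Del_13-33 against Del_1-265 (-0.0246) turned. With at least 3 boundaries between, 89-178 (-0.00511), H288R (0.00358) and Del_13-33 against Del_1-265 (-0.0275) turned. None of these was called. With runs as a block, 2 lines were called higher, Del_1-265 clone 1 (0.588) and clone 2 (0.896), Full-length against CTCF-AID, Tir1 turned from -0.2199 to 0.464, and Del_1-265 was -0.242 against Full-length without dox and 0.839 against Full-length_low_expression, while Del_13-33 against Del_1-265 turned to -0.141. Several differences from Full-length also changed sign in this block, without a test. They became positive in Full-length_low_expression (0.144), Mut_Parylation (0.257), Sumoylation_deficient_2 (0.118) and Y226A-F228A (0.388), and negative in Del_13-33 clone 2 (-0.238) and 89-178 (-0.0464).

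Equal replicate numbers did not go with correlated deviations over all runs together, and pairing within a run was not tested. With the replicate number as a block, the share of Del_1-265 clone 1 turned to -0.0114, Full-length against CTCF-AID, Tir1 to 0.392, and Del_1-265 was -0.242 against Full-length without dox and 0.839 against Full-length_low_expression. In the same block the same-distance ratio of Del_13-33 clone 1 was -0.0703 and 0 lines were called lower. Of member bin pairs, this block called 0.254% higher in Full-length without dox, 4.06% lower in Full-length_low_expression, 3.05% higher and 6.09% lower in Del_1-265, 1.52% higher and 4.31% lower in Del_13-33, and 6.09% higher and 0.254% lower in Full-length against CTCF-AID, Tir1.

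For the same-distance ratio (log2 differences), the call of Del_13-33 clone 1 was lost, leaving 0 lines called lower, in counts (-0.0572), with capped values (-0.0517), without the last bin (-0.0534) and with runs as a block (-0.0340). In counts, Full-length_low_expression (0.0336) and Del_1-265 clone 2 (-0.0102) turned. With bins weighted by member pairs, CTCF-AID, Tir1 against WT parental turned (0.00375). With capped values, 179-265 (0.0525), Del_576-614 (-0.00963) and Y226A-F228A (0.0124) turned. Without the last bin, Del_1-265 clone 2 (-0.00203), 179-265 (0.0318), Del_576-614 (-0.0228) and Y226A-F228A (0.0372) turned. With runs as a block, Del_1-265 clone 2 (-0.00402) and Del_576-614 (-0.0189) turned.

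Of the 15 segment pairs with members, Del_1-265 was higher in 0 from counts, 9 with the denominator over 100 kb and 11 with runs as a block. Of member bin pairs, a pseudocount of 1 gave 4.82% higher and 0.254% lower in Full-length without dox, 0.254% higher in Del_13-33, and 0.508% lower in Full-length against CTCF-AID, Tir1. Without a filter, 0.253% were lower in Full-length without dox. With runs, 35.8% were higher in Full-length without dox, 37.8% in Del_1-265, 0% in Del_13-33 and 3.05% in Full-length against CTCF-AID, Tir1, where 0.508% were lower. By edgeR on counts, 1.52% were lower in Del_1-265, 0% higher in Del_13-33, and 0.508% higher and 0.254% lower in Full-length against CTCF-AID, Tir1. Full-length without dox was left with 1 library in counts, where the median log2 difference over member bin pairs was 0.29.

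Leaving out 1 library at a time, the share difference ran from -0.0745 to 0.208 for Del_13-33 against Del_1-265 and from -0.00647 to 0.217 for 89-178. The same-distance ratio ran from -0.0222 to 0.0246 for the deletion in degron-tagged CTCF, -0.0446 to 0.0109 for that in untagged CTCF, -0.0264 to 0.0291 for CTCF-AID, Tir1 against WT parental, -0.0151 to 0.0318 for Del_576-614, -0.0194 to 0.0114 for 179-265, -3.09e-05 to 0.0146 for Del_1-265 clone 2 and -0.0692 to -0.0547 for Del_13-33 clone 1, with 0 to 1 lines called lower. Segment pairs with members that were higher in Del_1-265 numbered 0 to 8. Member bin pairs called higher ran from 6.35% to 22.8% in Del_1-265, 0% to 6.09% in Full-length without dox, 0% to 5.58% in Del_13-33 and 0.254% to 1.52% in Full-length against CTCF-AID, Tir1, and those called lower from 0% to 0.508%, 0% to 0.254% and 0% to 1.52% in the last 3. For Del_1-265, leaving out Full-length replicates 6, 8 (run 3) or 12 (run 6) or clone 1 replicate 4 (run 4) gave 8.88%, 9.39%, 9.64% and 9.14% higher.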
